A study of Mus musculus with 10 samples.

Results

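The results below describe 1176 CpG-dense stretches of the mouse autosomes that were unmethylated in sperm, and follow them through the zygote and the blastocyst. Each stretch is a tile of 100 bp that held at least 8 distinct cytosine positions over both sperm libraries. The strands of a CpG count as separate positions where both were covered, so the number of positions can exceed the number of CpGs. A tile was kept where both sperm libraries had at least 10 counts and 20% methylation or less, and each of the 8 embryo libraries had at least 10 counts. Of 7505 autosomal tiles with that coverage in all 10 libraries, 1207 were dense in this sense, and 1176 of those were low in sperm. The tiles were chosen by their sperm values, so the low sperm level is given as a description only.

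The method was reduced representation bisulfite sequencing, in which the enzyme MspI cuts the DNA and CpG-rich fragments are read after bisulfite conversion. The sperm group was wild-type CAST/EiJ sperm, taken from the caudal epididymides of adult males per the labels' protocols. All embryos came from eggs of superovulated females aged 7 to 10 weeks, of C57BL/6J background by the strain label, which were inseminated in vitro with CAST/EiJ sperm. The 4 embryo groups were wild-type (WT) zygotes and CKO zygotes, both collected 13 h after fertilisation, and WT and CKO blastocysts, both collected at 96 h. CKO is the labels' name for the genotype maternal Tet3 KO, in which the egg's supply of Tet3 is removed. Every embryo group had the same sperm strain and the same culture, so the fathers' side was not varied. Each group had 2 libraries, called biological duplicates in the labels, and an embryo library pooled 40 to 50 zygotes or 4 blastocysts. The labels do not say which deletion or Cre line removed Tet3, nor whether the embryo reads were separated by parent of origin, so each embryo value may hold the paternal allele, the maternal allele or both.

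CpG islands are stretches of DNA, often at promoters, where CpG sites are frequent and methylation is usually absent. After fertilisation most of the methylation that sperm brings is lost, partly through oxidation by TET3, a dioxygenase that acts on 5-methylcytosine and is stored in the egg. The egg also stores methyltransferases, which can add methylation to unmethylated DNA. Bisulfite sequencing reads 5-methylcytosine and its oxidised product 5-hydroxymethylcytosine alike, so a methylated count here may be either mark. An allele that is unmethylated in sperm brings no methylation of its own for TET3 to oxidise, though methylation added later could be oxidised. The tiles can show where embryo levels were low and where they were not. No group here is an egg sample, so the level of the maternal allele before fertilisation is not known. A methylated count in an embryo therefore need not be a gain.

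Total counts per library ran from 1005492 to 2535229, highest in sperm. In the 1176 tiles the median count per tile was 177.5 and 154.5 in the sperm libraries and 57.0 to 96.0 in the embryo libraries. A tile's counts are summed over its cytosine positions, and 1 read adds a count at each position it covers, so counts are not reads. The count at a tile's deepest position is a lower bound on its reads, and its median over tiles was 8 to 13 in the embryo libraries. Between 9.35% and 20.6% of the tiles had fewer than 5 counts at every position, depending on the embryo library. Reads carry no molecular identifiers, so intervals and limits cover counting error only. Replicates of each group differed by more than binomial sampling of independent counts would give. The chi-square over tiles was 1.78 times its degrees of freedom in sperm and 5.04 to 7.86 times in the embryo groups. Since 1 read adds several counts, these ratios cannot separate the sampling of few reads from a difference between replicates.

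Nearly all of the tiles stayed low. Of the 1176 tiles, 1092 (92.9%) had 20% methylation or less in every one of the 8 embryo libraries, and 882 (75.0%) had 5% or less in every one. No methylated count at all was seen in the embryos at 525 tiles (44.6%), and at 348 tiles (29.6%) none was seen in sperm either. The 525 tiles had 155 to 1656 summed embryo counts with a median of 581. A count of 0 among 581 allows a level of up to 0.516%, and among 155 a level of up to 1.94%, if counts are taken as independent. These limits are too low where neighbouring positions were covered by the same reads.

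The mean level over the 1176 tiles was between 0.262% and 1.44% in all 5 groups. Sperm libraries averaged 0.263% and 0.261%, a mean of 0.262% ± 0.00182 (SD, n = 2). WT zygote libraries averaged 1.52% and 1.36% (1.44% ± 0.112, SD, n = 2), and CKO zygote libraries 1.34% and 1.51% (1.43% ± 0.121, n = 2). WT blastocyst libraries averaged 0.862% and 0.692% (0.777% ± 0.120, n = 2), and CKO blastocyst libraries 1.02% and 0.737% (0.880% ± 0.202, n = 2). Zygotes of both genotypes thus lay above blastocysts, with no overlap between libraries of the 2 stages. Rates of bisulfite conversion are not stated in the labels, and their part in levels this low was not tested.

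**Figure D1:**
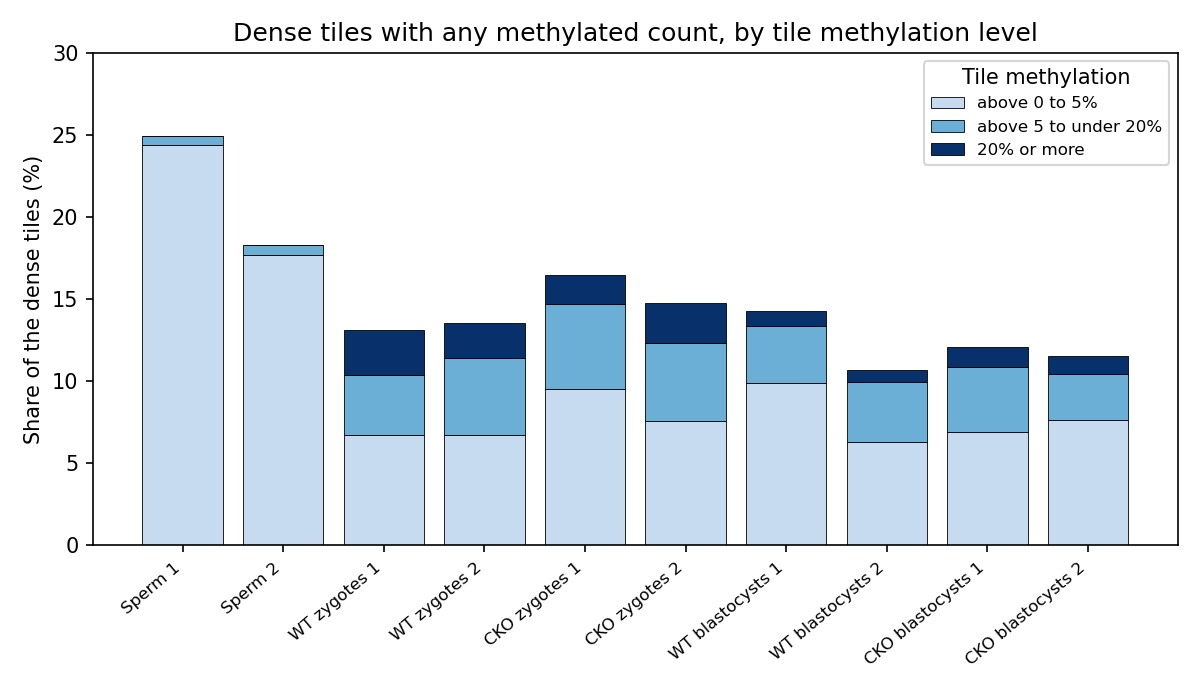
The bars show, for each of the 10 libraries, the share (%) of the 1176 dense tiles with any methylated count, stacked by the tile's methylation level. Tiles at 20% or more made up 1.79% to 2.72% of the tiles in the zygote libraries and 0.765% to 1.19% in the blastocyst libraries, and sperm had none because the selection removed them.

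The embryo means came from few tiles. In the zygote libraries 83.5% to 86.9% of the tiles had no methylated count, and in the blastocyst libraries 85.7% to 89.3%. The sperm libraries, with deeper tiles, had fewer such tiles (75.1% and 81.7%), and no sperm tile exceeded 18.9%. Tiles at 20% or more numbered 32 and 25 in the WT zygote libraries and 21 and 29 in the CKO zygote libraries. They numbered 11 and 9 in the WT blastocyst libraries and 14 and 13 in the CKO blastocyst libraries. These few tiles held 46.7% to 60.9% of all methylated counts of a zygote library and 28.0% to 41.4% of those of a blastocyst library. Without them, the mean of the remaining tiles was 0.529% to 0.744% in zygote libraries and 0.462% to 0.585% in blastocyst libraries.

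The comparison of CKO with WT embryos asks whether these tiles have more methylation when the egg lacks Tet3. In zygotes the mean level in CKO minus that in WT was -0.00989 points with an SD of the difference of 0.165 points, and the libraries of the genotypes overlapped. In blastocysts the difference was 0.102 points with an SD of 0.235, again with overlapping libraries. Over all 1176 tiles both differences were smaller than the spread between replicates. This did not hold in the deeper tiles. Among the 501 tiles with at least 5 counts at the deepest position in every embryo library, a choice made after the data were seen, both CKO libraries lay above both WT libraries at each stage. There the difference was 0.244 points in zygotes (SD of the difference 0.226) and 0.225 points in blastocysts (SD 0.0836). In the 388 tiles with the most counts in their shallowest embryo library, CKO blastocysts averaged 1.01% ± 0.0581 and WT blastocysts 0.552% ± 0.00246 (SD, n = 2 per group), and CKO and WT zygotes 1.22% ± 0.101 and 1.03% ± 0.0146. In the 433 tiles with the fewest, the CKO mean was the lower, at 0.779% ± 0.412 and 0.839% ± 0.163 in blastocysts and 1.33% ± 0.117 and 1.75% ± 0.189 in zygotes. In the 355 tiles between these classes the stages differed. CKO blastocysts averaged 0.865% ± 0.230 and WT blastocysts 0.948% ± 0.197, while CKO zygotes averaged 1.76% ± 0.147 and WT zygotes 1.498% ± 0.125. Over all 1176 tiles, the genotype difference in blastocysts minus that in zygotes was 0.112 points with an SD of 0.287. For scale, 17 dense tiles that had 80% or more in both sperm libraries averaged 72.4% ± 0.446 (SD, n = 2) in CKO and 60.01% ± 3.14 (n = 2) in WT zygotes, 12.4 points apart. In blastocysts those 17 tiles averaged 44.1% ± 1.09 and 27.2% ± 3.61 (n = 2 each), 16.9 points apart. The difference between the 17 and the 1176 tiles was not tested.

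Single tiles were tested with edgeR's quasi-likelihood test on methylated and unmethylated counts, fitted over all 7546 autosomal tiles with at least 10 counts in the 8 embryo libraries, with Benjamini-Hochberg adjustment over all of them. Between CKO and WT zygotes 0 of the 1176 dense tiles had an adjusted p of 0.05 or less, against 0% of all tiles. At an unadjusted p below 0.05 there were 16 dense tiles (1.36%), 11 higher and 5 lower in CKO, against 4.06% of all tiles. Between CKO and WT blastocysts 0 passed after adjustment, against 0% of all tiles, and 8 (0.680%) had an unadjusted p below 0.05, 7 higher and 1 lower, against 2.72% of all tiles. For the interaction of genotype and stage 0 passed, against 0.0133% of all tiles, and 8 (0.680%) had an unadjusted p below 0.05 against 2.21%. The dense tiles were thus below the background share in each of these unadjusted counts, and a tile at or near 0 in all libraries cannot reach a small p. limma on log-ratios called 0 dense tiles in all 3 comparisons, and 0 of all tiles. edgeR's likelihood ratio test, which takes the spread between libraries as binomial, called 157, 94 and 51 of the 1176 dense tiles. Over all 7546 tiles it called 1923, 1570 and 1225, so the share of the dense tiles was the smaller in each comparison.

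The dense tile with the smallest p between the zygote genotypes was chr14:21514301-21514400 (mm9), with 20 positions. Its WT zygote libraries had 16.5% of 121 counts and 0% of 99, and its CKO zygote libraries 4.35% of 23 and 61.2% of 134. The blastocyst libraries had 0.641% and 0% in WT and 2.86% and 0% in CKO, and sperm had 0% in both. CKO zygote replicate 2 alone was high and the genotypes overlapped (edgeR, unadjusted p = 0.00171, adjusted p = 0.517).

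The tile with the smallest p for the interaction was chr8:112485801-112485900, with 9 positions. Its WT zygote libraries had 7.36% and 11.4%, its CKO zygote libraries 9.59% and 31.7%, its WT blastocyst libraries 35.4% and 25.4%, and its CKO blastocyst libraries 3.55% and 1.96%. The blastocyst genotypes did not overlap at this tile and WT was the higher, while the zygote genotypes overlapped. The interaction did not pass after adjustment (edgeR, adjusted p = 1).

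The comparison of blastocysts with zygotes asks whether the low level in zygotes changes over cleavage. Blastocysts minus zygotes, the mean level of the dense tiles differed by -0.659 points in WT embryos (SD of the difference 0.164) and by -0.547 points in CKO embryos (SD 0.235), so both falls exceeded the spread between replicates. Among the 501 tiles with at least 5 counts at the deepest position, the falls were smaller. There the WT zygotes averaged 0.997% ± 0.0394 and the WT blastocysts 0.727% ± 0.0818, a difference of -0.269 points, and the libraries still did not overlap. The CKO zygotes averaged 1.24% ± 0.223 and the CKO blastocysts 0.952% ± 0.0172 (SD, n = 2 in each group), a difference of -0.289 points, also without overlap. The zygote means of all 1176 tiles, 1.44% and 1.43%, were higher than those of the 501 deeper tiles, and the part of read number in the stage difference was not tested further.

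Between WT zygotes and WT blastocysts, edgeR called 2 of the 1176 dense tiles (0.170%) at an adjusted p of 0.05 or less, both lower in blastocysts, against 0.424% of all tiles. At an unadjusted p below 0.05 there were 22 (1.87%), 20 of them lower in blastocysts, against 9.4% of all tiles. Between CKO zygotes and CKO blastocysts 1 dense tile (0.0850%) was called, higher in blastocysts, against 0.729% of all tiles. At an unadjusted p below 0.05 there were 19 (1.62%), 16 of them lower, against 10.5% of all tiles. The dense tiles were again below the background share, and limma called 0 of them in both comparisons, against 0 and 3 of all tiles.

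The 2 tiles that fell between WT zygotes and WT blastocysts were chr18:36038701-36038800, with 10 positions, and chr1:33777101-33777200, with 18 positions. At the first, the WT zygote libraries had 83.8% of 117 counts and 75.6% of 78, and the WT blastocyst libraries 24.3% of 140 and 0% of 23. At the second, the WT zygote libraries had 42.2% of 64 and 40.0% of 20, and the WT blastocyst libraries 0% of 114 and 0% of 220. In both tiles each zygote library lay above each blastocyst library. The mean change was -67.6 points at the chromosome 18 tile (edgeR, adjusted p = 0.0385) and -41.1 points at the chromosome 1 tile (adjusted p = 0.0429).

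Those calls were not stable. Over the alternatives tried, the adjusted p ran from 1.02e-28 to 1 at the chromosome 18 tile and from 6.72e-27 to 1 at the chromosome 1 tile. The chromosome 18 call was lost without either WT zygote library (adjusted p of 0.356 without replicate 1 and 0.0782 without replicate 2), without either WT blastocyst library (0.544 and 0.540) and without either CKO blastocyst library (0.0638 and 0.0654). The chromosome 1 call was lost without the same 6 libraries (0.504, 0.0800, 0.289, 0.822, 0.0771 and 0.0838 in that order) and without CKO zygote replicate 2 (0.0515). limma gave an adjusted p of 0.132 for the first and 0.0616 for the second.

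The tile called between the CKO stages was chr6:117770301-117770400, with 13 positions. It had 7.40% of 338 counts and 3.83% of 209 in sperm. Its zygote libraries had 0% and 2.36% in WT and 0.524% and 0% in CKO, and both WT blastocyst libraries had 0%. The CKO blastocyst libraries had 0% of 47 counts and 35.5% of 166, so a single library was high. The mean change was 17.5 points (edgeR, adjusted p = 0.0414), and without CKO blastocyst replicate 2 the adjusted p was 1. The adjusted p ran from 5.84e-26 to 1 over the alternatives, and the call was also lost without CKO zygote replicate 1 (0.174) or 2 (0.270), without WT blastocyst replicate 1 (0.0765) or 2 (0.0818) and without CKO blastocyst replicate 1 (0.0988). The same tile had the smallest p between the blastocyst genotypes, where it did not pass (unadjusted p = 0.000775, adjusted p = 0.841).

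The exceptions to the low state were counted by a rule that needs both replicates. A tile was taken to depart where both libraries of at least 1 embryo group had 20% or more. Such tiles numbered 21 of 1176 (1.79%). Of the others, 50 tiles reached 20% in exactly 1 embryo library, and 14 reached it in 2 or more libraries without filling a group. WT zygotes had 11 departing tiles and CKO zygotes 11, with 4 tiles in both, while WT blastocysts and CKO blastocysts had 2 each. Of the 18 tiles that departed in a zygote group, 9 were below 20% in all 4 blastocyst libraries. No tile was at 20% or more in all 4 blastocyst libraries, and only 1 tile of the 1176 departed when the level was set to 50%. With 1 library left out, its group needs only the remaining library, and the share departing rose to 2.98% without WT zygote replicate 1, 3.18% without WT zygote replicate 2 and 2.87% without CKO zygote replicate 1.

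**Figure D2:**
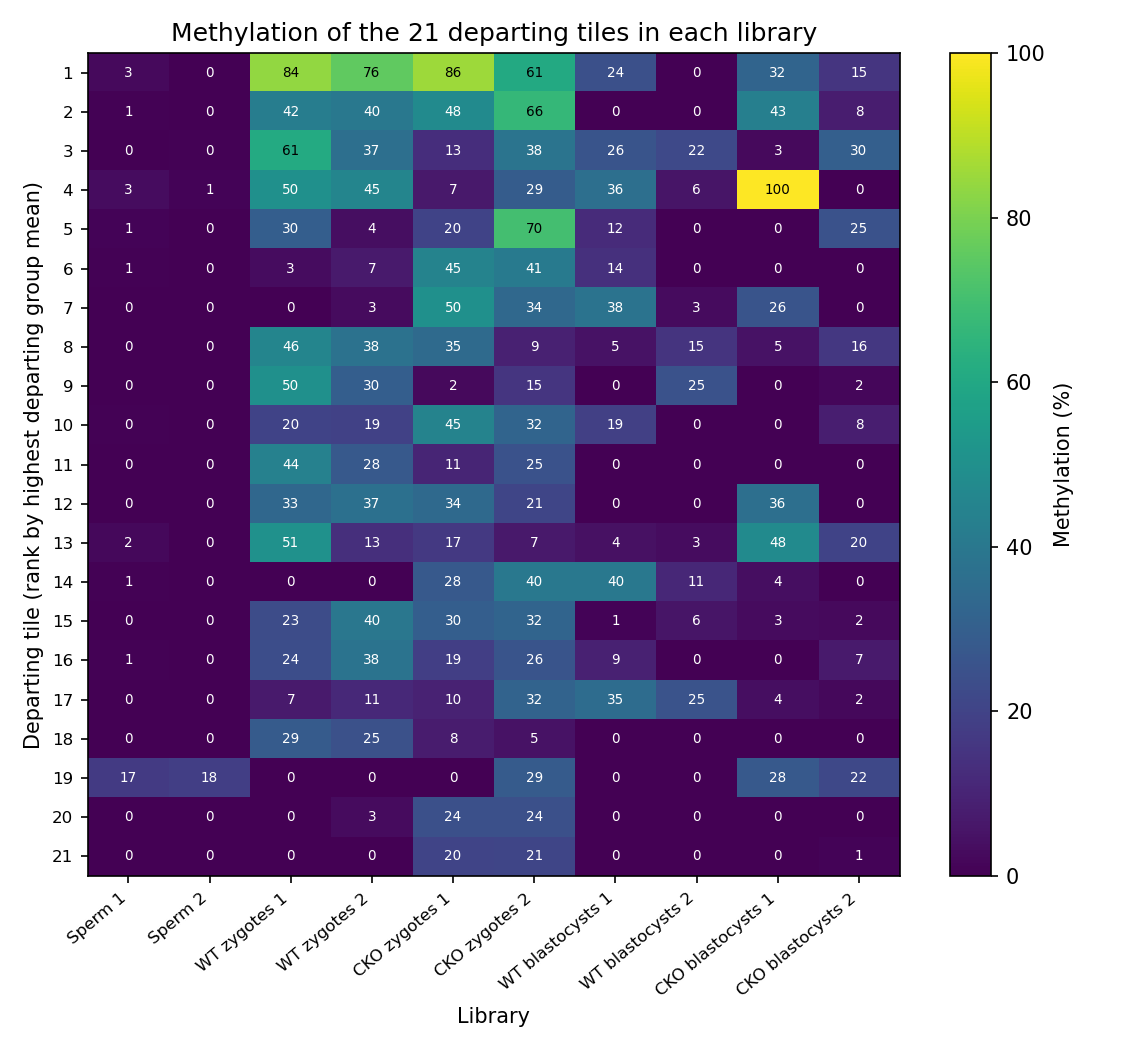
The grid shows the methylation level (%, colour and printed value) of the 21 departing tiles (rows, ranked by the highest mean of a group in which the tile departed) in each of the 10 libraries (columns). The rows ranked 1, 2, 12 and 15 were at 20% or more in all 4 zygote libraries, and no row was at 20% or more in all 4 blastocyst libraries.

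The 4 tiles that departed in both zygote genotypes are shown first because all 4 zygote libraries were high there. The chromosome 18 tile had 2.56% of 156 counts and 0% of 135 in sperm. Its CKO zygote libraries had 85.5% of 69 counts and 60.6% of 33, close to the 83.8% and 75.6% of the WT zygote libraries. Its CKO blastocyst libraries had 32.2% and 15.5%. It was the only tile with 50% or more in both libraries of a group, with WT zygotes at 79.7% ± 5.74 and CKO zygotes at 73.1% ± 17.6 (SD, n = 2 per group).

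The methylated counts of the chromosome 18 tile were spread over its positions. In WT zygotes 9 of its 10 positions had 75.0% methylation or more with replicates summed, and the position 21 bp from the tile start had 0% in every group. The 2 deepest positions, at 64 and 98 bp, had 75.0% and 85.0% in WT zygotes and 76.9% at each in CKO zygotes. In WT blastocysts these positions had 80.0% at each, nearly all of it from replicate 1, while the positions at 0, 6, 37 and 43 bp had 0% and those at 39 and 47 bp had 21.1%. The lower WT blastocyst level thus lay at the positions within 47 bp of the tile start and not at those at 64 and 98 bp. Coverage was uneven, since the positions at 64 and 98 bp had 44 counts each in WT zygote replicate 1 and those within 47 bp had 4 each. In WT blastocyst replicate 1 the same positions had 14 each and 13 to 16 each, and in replicate 2 they had 1 and 3.

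The chromosome 1 tile had 0.654% of 306 counts and 0% of 384 in sperm. Its CKO zygote libraries had 47.7% of 199 counts and 66.4% of 146, and its CKO blastocyst libraries 43.1% of 58 and 7.81% of 128. The WT zygote values rest on at most 4 counts at any position in replicate 1 and 2 in replicate 2, so on few reads, while the CKO zygote libraries had up to 20 and 13. Both WT blastocyst libraries, with up to 9 and 22 counts at a position, had no methylated count.

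The third of these tiles was chr17:56896501-56896600, with 10 positions and no methylated count in sperm. Its WT zygote libraries had 33.3% of 12 counts and 36.8% of 152, and its CKO zygote libraries 34.0% of 100 and 20.8% of 72. Its WT blastocyst libraries had 0% of 13 and 0% of 23, and its CKO blastocyst libraries 36.4% of 99 and 0% of 21. The blastocyst libraries at 0% were shallow, with at most 7 counts at any position. The CKO zygote libraries had their methylated counts at different positions. Replicate 1 had them at 53, 84 and 91 bp, with 14, 7 and 13 methylated of 24, where replicate 2 had 0 of 3 at each. Replicate 2 had them at 9, 16, 31, 41 and 47 bp, where replicate 1 had 0 of 4 at each. In WT zygote replicate 1 all methylated counts lay at 91 bp, with 4 of 4.

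The fourth, named for its 4 high zygote libraries after the values were seen, was chr16:87432701-87432800, with 11 positions and 0% of 198 and 0% of 204 counts in sperm. Its WT zygote libraries had 23.4% of 244 counts and 39.5% of 129, and its CKO zygote libraries 29.9% of 137 and 32.4% of 136. All 4 blastocyst libraries were lower, with 0.833% and 5.56% in WT and 3.06% and 2.47% in CKO. It had the most even coverage of the 4, with 15 to 31 counts at the deepest position of each zygote library and 11 to 17 in each blastocyst library. The genotypes differed by -0.308 points in zygotes and -0.429 points in blastocysts. Blastocysts minus zygotes, the difference was -28.3 points in WT and -28.4 points in CKO, without overlap between libraries, and passed in neither genotype after adjustment (edgeR, adjusted p = 0.142 and 0.169).

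**Figure D3:**
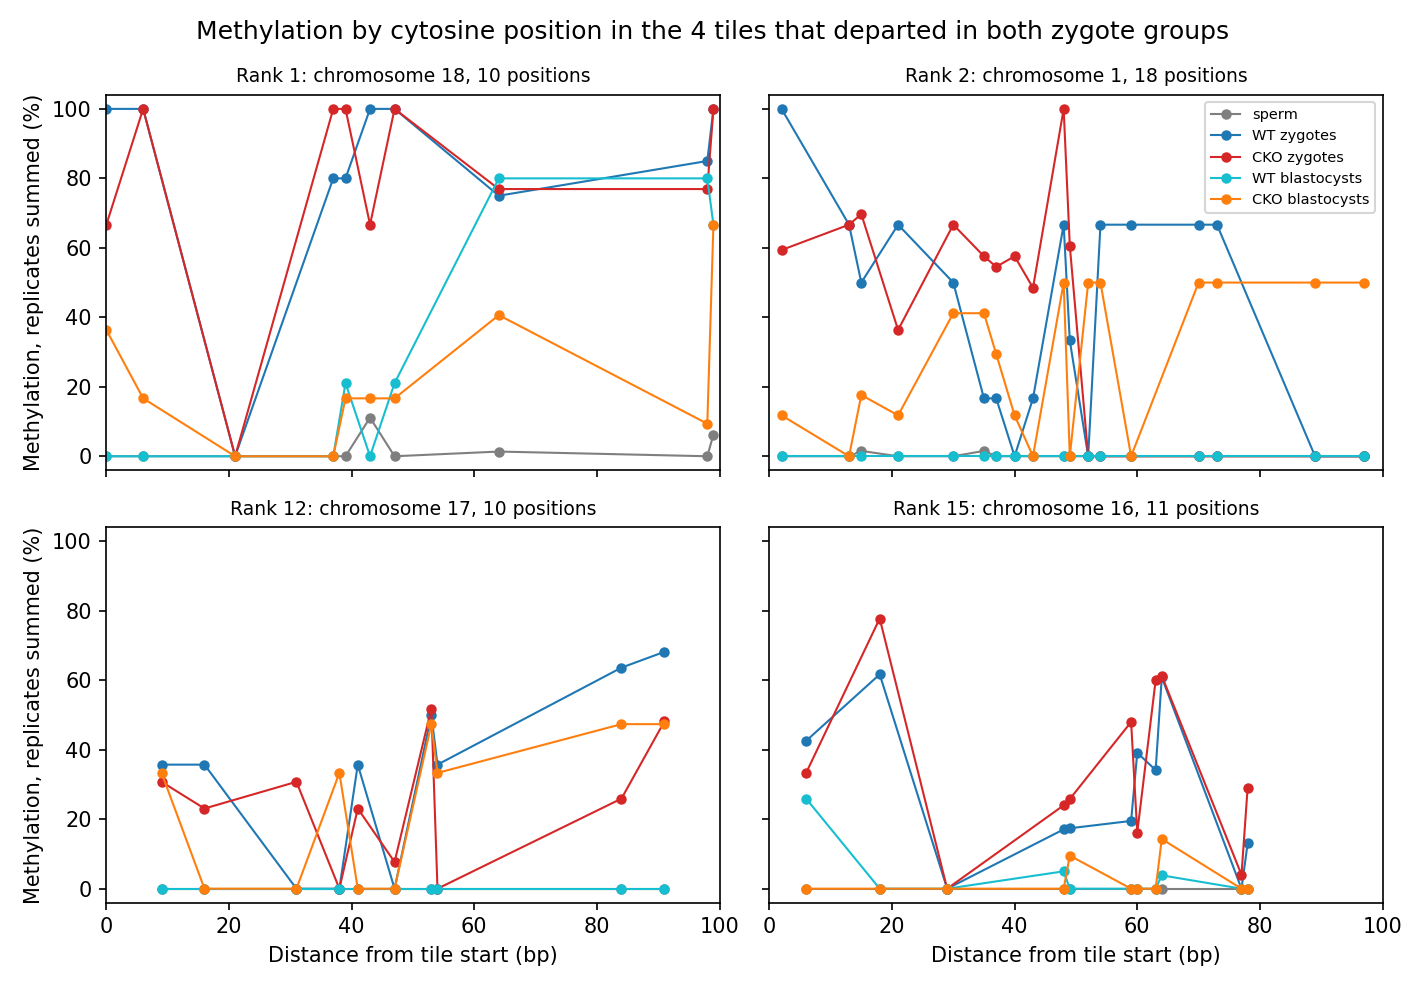
Each panel plots methylation (%, replicates of a group summed) at the cytosine positions of 1 of the 4 tiles that departed in both zygote groups, against the distance from the tile start (bp), with a line for each of the 5 groups. WT and CKO zygotes lay above sperm at most positions of each tile, and single positions, such as that at 21 bp of the chromosome 18 tile, were at 0% in all groups.

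Other tiles departed in WT but not in CKO zygotes. At chr8:26830401-26830500, with 11 positions, the WT zygote libraries had 61.1% and 36.5% and the CKO zygote libraries 13.0% and 38.3%. Its WT blastocyst libraries had 26.1% and 22.1%, its CKO blastocyst libraries 2.60% and 30.2%, and its sperm libraries 0% and 0.485%. This tile was the single one that departed in a zygote and a blastocyst group, both WT, while 1 CKO library at each stage was also above 20%.

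At chr9:59539701-59539800, with 8 positions, the WT zygote libraries had 50.0% and 45.5%, the CKO zygote libraries 6.94% and 29.0%, and the WT blastocyst libraries 36.5% and 5.77%. Its CKO blastocyst libraries had 100% of 16 counts and 0% of 56, and the first of these had only 2 counts at its deepest position. Its sperm libraries had 3.37% and 0.781%. The 2 CKO blastocyst libraries at this tile show how far apart replicates could lie where few reads were behind a value.

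At chr1:21156501-21156600, with 11 positions and 0% in sperm, the WT zygote libraries had 45.6% and 37.6% and the CKO zygote libraries 34.6% and 9.09%. Its blastocyst libraries had 4.88% and 15.1% in WT and 4.94% and 16.3% in CKO, all below both WT zygote libraries. At chr17:66868501-66868600, with 12 positions and 0% in sperm, the WT zygote libraries had 50.0% and 29.8%, the CKO zygote libraries 2.50% and 15.3%, the WT blastocyst libraries 0% and 25.3%, and the CKO blastocyst libraries 0% and 1.75%. The CKO zygote libraries lay below both WT zygote libraries at both tiles. Part of that order follows from the choice of tiles that departed in WT but not in CKO zygotes. Neither genotype difference passed (edgeR, adjusted p = 1 for each).

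At chr4:9063101-9063200, with 11 positions and 0% in sperm, the WT zygote libraries had 43.8% and 27.8%, the CKO zygote libraries 10.5% of 57 counts and 6 methylated of 24, and all 4 blastocyst libraries 0% of 14 to 92 counts. This was a tile where methylation was seen in every zygote library and in no blastocyst library. WT blastocyst replicate 1 had no count at 0, 12, 42 and 48 bp from the tile start. Those positions held all methylated counts of the CKO zygote libraries and most of those of each WT zygote library. The 0% of that blastocyst library thus comes from other positions. Its stage difference was -35.8 points in WT and -17.8 points in CKO (edgeR, adjusted p = 0.237 and 0.705).

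Tiles that departed in CKO but not in WT zygotes were as frequent. Part of the order of the zygote genotypes at such tiles follows from this choice. At chr5:89315701-89315800, with 11 positions, the CKO zygote libraries had 44.6% of 65 counts and 40.7% of 81, and the WT zygote libraries 3.12% of 96 and 7.14% of 14. Its blastocyst libraries had 13.9% and 0% in WT and 0% in both CKO libraries, and its sperm libraries 0.649% and 0%. The genotypes did not overlap in zygotes, with a difference of 37.5 points that did not pass (edgeR, adjusted p = 0.743). WT zygote replicate 2 had counts only at 10, 17 and 21 bp from the tile start, where CKO zygote replicate 2 had no methylated count. The value of WT zygote replicate 2 thus does not cover the positions where most methylated CKO zygote counts lay.

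At chr13:49516801-49516900, with 10 positions and 0% in sperm, the CKO zygote libraries had 50.0% and 33.9% and the WT zygote libraries 0% of 88 counts and 2.78% of 36. Its blastocyst libraries had 38.2% and 2.78% in WT and 25.9% and 0% in CKO. The zygote difference was 40.5 points without overlap (edgeR, adjusted p = 0.596). The CKO zygote libraries covered the tile differently. Replicate 1 had all its methylated counts at 62, 73, 76 and 83 bp from the tile start, where it had 14 counts each and replicate 2 had 5 each, none methylated. Replicate 2 had its methylated counts at 29, 31 and 48 bp, with 7 of 7 methylated at each, where replicate 1 had 1 count each, none methylated.

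At chr12:8506601-8506700, with 10 positions, the CKO zygote libraries had 20.0% of 30 counts and 70.0% of 30, with 3 counts at every position in each library. Its WT zygote libraries had 30.0% and 3.85%, its blastocyst libraries 12.3% and 0% in WT and 0% of 70 counts and 15 methylated of 60 in CKO, and its sperm libraries 0.833% and 0%. At chr1:190831501-190831600, with 13 positions, the CKO zygote libraries had 44.8% and 32.1% and the WT zygote libraries 20.3% and 19.2%, so this tile missed departure in WT zygotes by 1 library. Its blastocyst libraries had 19.0% and 0% in WT and 0% and 8.33% in CKO, and its sperm libraries 0.461% and 0%. Each zygote library of this tile lay above each blastocyst library of the same genotype.

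The 9 departing tiles ranked 13 to 21 had departing group means of 20.6% to 34.0%. They include the chromosome 16 tile and the tile at position 112485801 of chromosome 8 given above, and 4 more are named here after their values were seen. The 2 that departed in CKO blastocysts were chr15:90510001-90510100, with 47.9% and 20.0% there, and chr12:107716801-107716900, with 27.9% and 21.7%. The first also had 50.5% and 13.3% in WT zygotes, and 4.44% and 3.45% in WT blastocysts. The second had the highest sperm level of the departing tiles, at 17.1% and 18.4%, with 0% in both WT zygote and both WT blastocyst libraries. At chr12:102321301-102321400, with 16 positions, the CKO zygote libraries had 24.4% of 234 counts and 24.3% of 181, the WT zygote libraries 0% and 2.80%, and every blastocyst and sperm library 0%. At chr5:125914501-125914600 the CKO zygote libraries had 20.3% and 20.9%, and no other library passed 0.806%. These CKO zygote libraries had their methylated counts at different positions. Replicate 1 had 4 of 4 at 23, 40 and 45 bp, where replicate 2 had 0 of 4 at each. Replicate 2 had 16 and 8 of 29 at 76 and 93 bp, where replicate 1 had 0 of 11 at each.

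Replicates of a zygote group often did not share the same high tiles. Of the 32 tiles at 20% or more in WT zygote replicate 1, 11 (34.4%) were also at 20% or more in replicate 2, and 6 had 0% there. The share was 44.0% of 25 tiles chosen in WT zygote replicate 2, 52.4% of 21 chosen in CKO zygote replicate 1 and 37.9% of 29 chosen in CKO zygote replicate 2. The replicate that had not been used to choose the tiles averaged 18.3% to 23.5% over them, against 0.882% to 1.11% over all other dense tiles. Tiles chosen in 1 zygote library thus had a raised mean in the other library of the group. They also had a raised mean in the zygotes of the other genotype, between 13.8% and 18.7%.

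In blastocysts the overlap was smaller. Of the 11, 9, 14 and 13 tiles at 20% or more in the WT and CKO blastocyst libraries, 2 were shared within each genotype, which is 14.3% to 22.2% of a library's tiles. The other replicate averaged 6.11% to 10.4% over the chosen tiles, against 0.641% to 0.931% over the rest. The zygote libraries averaged 6.06% to 23.4% over the tiles chosen in a blastocyst library. These lists share tiles, and a difference between the stages in the overlap was not tested.

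**Figure D4:**
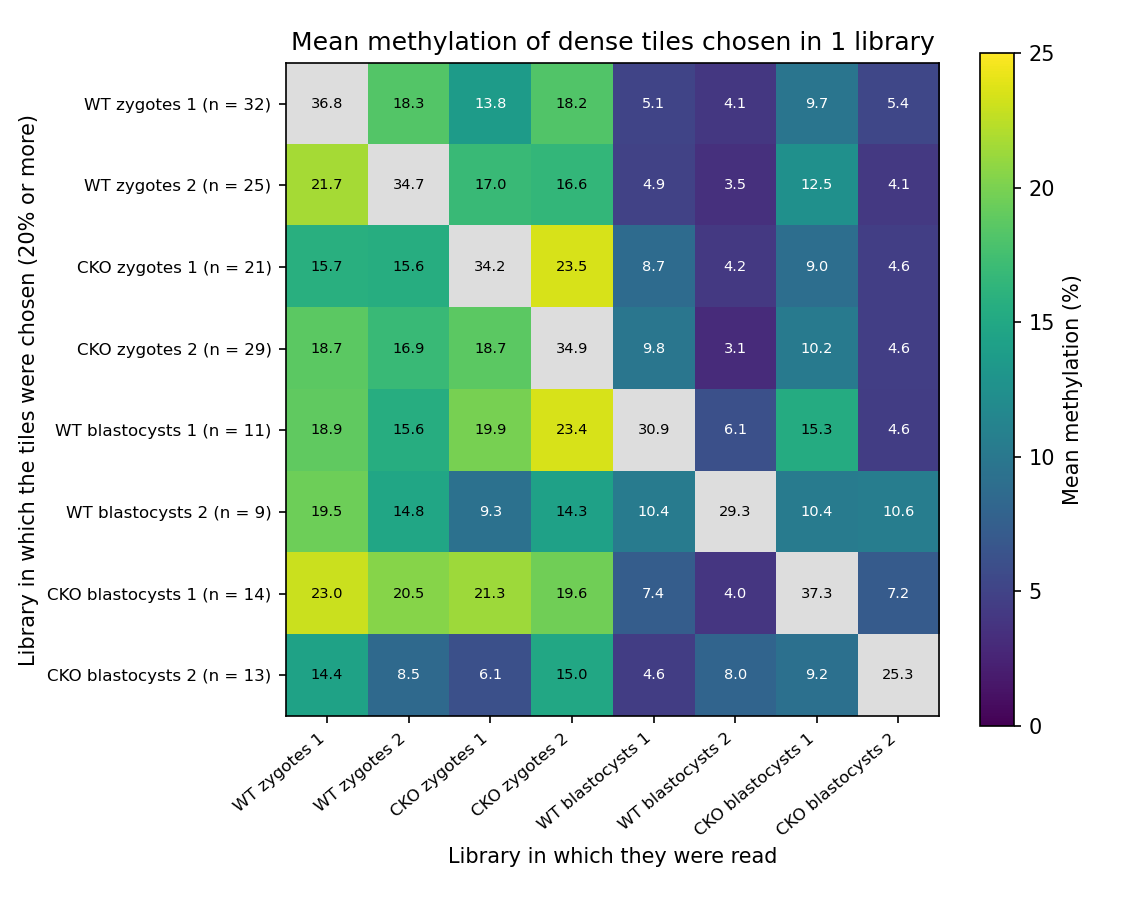
Each row takes the dense tiles at 20% or more in 1 embryo library, and the colours and printed values give their mean methylation (%) in each embryo library, with the library that chose them in grey. Zygote libraries averaged 13.8% to 23.5% over tiles chosen in another zygote library, and blastocyst libraries 3.10% to 12.5% over the same tiles.

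Within a high tile the methylation was partial. Over the 154 values at 20% or more (1 tile in 1 embryo library each), the median tile had 10 positions, of which 5 had a methylated count. All positions had one in 8 of the 154 values, only 1 position had one in 7, and 55 held a position where every count was methylated. Methylated counts at the positions of a tile took a median of 2 distinct values, a pattern in which neighbouring positions repeat the same number. A read that crosses several positions adds a count at each, so the counts of neighbouring positions are not independent.

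The strands of a CpG were compared where both had at least 5 counts in the same library. In zygote libraries 1088 to 1369 CpGs in the dense tiles met this, and 11 to 19 of them were at 20% or more on both strands, while 42 to 73 were so on 1 strand only. In blastocyst libraries 2 to 9 of 699 to 999 CpGs were at 20% or more on both strands and 23 to 40 on 1 strand only. In sperm 0 of 2776 and 0 of 2507 were so on both strands, and 26 and 14 on 1 strand. A CpG at 20% or more in these tiles was thus in most cases so on a single strand. At 5 counts, 1 methylated count is enough to reach 20%, so the limit can be crossed on few reads. Whether the strands of a CpG differed beyond such sampling was not tested.

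The departing tiles lay apart from each other. Joining members whose starts lie within 1000 bp gave 1088 regions, of which 1003 held a single tile and the largest held 3. None of the 85 regions with more than 1 tile held a departing tile. Members lay on all 19 autosomes, with 38 to 99 on each, and departing tiles on 12 of them, with 5 on chromosome 1.

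Less dense tiles near departing tiles, within 1 kb and covered in all libraries, were found for 5 of the 21. The tile at position 21156601 of chromosome 1, with 5 positions, adjoins the departing tile chr1:21156501-21156600. It averaged 0% in sperm, 41.4% in WT and 36.3% in CKO zygotes, and 15.4% in WT and 20.5% in CKO blastocysts, so it followed its neighbour's order. Since these tiles adjoin, the same reads may have added counts to both. The tile 400 bp from the departing tile at position 90510001 of chromosome 15 averaged 28.9% in WT and 14.8% in CKO zygotes and 0.962% and 0% in blastocysts. That tile was low in CKO blastocysts, the group in which its neighbour departed. The tile 100 bp before that at position 107716801 of chromosome 12 averaged 6.88% in sperm, 30.4% in CKO zygotes and 0% in the other embryo groups. Its CKO zygote mean came from a single library, at 60.9%. The remaining 2 averaged at most 9.85% in any group.

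The number of positions counts the strands of a CpG separately, so it is not the number of CpGs. Departures were not ordered by this number within the dense tiles. They numbered 6 of 434 tiles with 8 or 9 positions (1.38%), 11 of 295 with 10 or 11 (3.73%), 2 of 297 with 12 to 15 (0.673%) and 2 of 150 with 16 to 32 (1.33%). Mean WT zygote levels in these classes were 0.9998%, 2.39%, 1.23% and 1.23%, and mean WT blastocyst levels 0.921%, 0.971%, 0.455% and 0.617%. By sperm level, 10 of 722 tiles without a methylated sperm count departed (1.39%), 10 of 445 tiles above 0 and up to 5% (2.25%), and 1 of 9 tiles above 5%. By depth, 9 of 433 tiles departed in the class with 10 to 20 counts in the shallowest embryo library (2.08%), 6 of 355 with 21 to 36 counts (1.69%) and 6 of 388 with 37 to 175 (1.55%). Mean WT zygote methylation was 1.75%, 1.498% and 1.03% in these depth classes, and the differences between classes were not tested.

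The 4 dense tiles with the most embryo counts show the low state at its best resolved. chr9:43047801-43047900, with 18 positions and 2185 embryo counts, had at most 1.12% in any library, in WT zygote replicate 2. chr15:64213701-64213800, with 10 positions and 1868 embryo counts, had 0% in 7 embryo libraries and 2.08% of 144 counts in CKO blastocyst replicate 2. Its WT zygote replicate 1 had 0 methylated of 608 counts. chr11:17059101-17059200, with 22 positions and 2010 embryo counts, had at most 3.17%, in WT blastocyst replicate 2, and chr15:73253701-73253800, with 15 positions and 1784 embryo counts, at most 2.74%, in the same library. None of these 4 tiles passed in any of the 5 embryo comparisons (edgeR, adjusted p of 0.820 to 1).

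Tiles with fewer positions that were also low in sperm had higher levels in every group. Over 1957 tiles with 4 to 7 positions, the mean was 0.666% ± 0.0228 in sperm, 2.03% ± 0.0338 in WT and 2.19% ± 0.191 in CKO zygotes, and 1.502% ± 0.139 and 1.34% ± 0.127 in WT and CKO blastocysts (SD, n = 2 each). Over 1432 tiles with 3 or fewer positions it was 1.82% ± 0.00738, 2.91% ± 0.0250, 3.59% ± 0.253, 2.39% ± 0.227 and 2.19% ± 0.294 in the same order. The share that departed was 1.79% of the dense tiles, 2.86% of those with 4 to 7 positions and 4.75% of those with 3 or fewer. Tiles with fewer positions also need more counts at a position to reach 10, and the difference between the classes was not tested. CKO minus WT in zygotes was 0.161 points with an SD of 0.193 at 4 to 7 positions and 0.680 points with an SD of 0.255 at 3 or fewer, where it exceeded the spread between replicates.

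**Figure D5:**
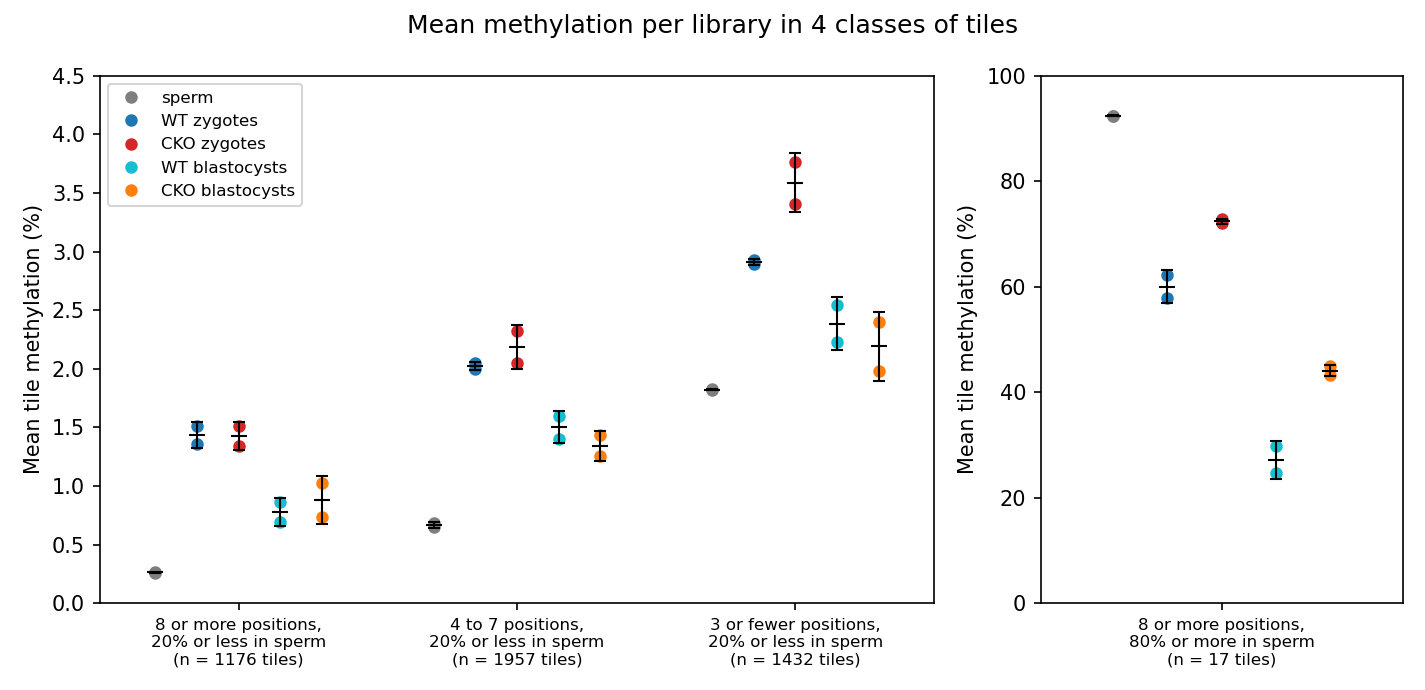
Points give the mean tile methylation (%) of each library in 4 classes of tiles set by the number of cytosine positions and the sperm level, and horizontal bars with error bars give the mean ± SD of the 2 libraries of a group. In the dense tiles low in sperm the WT and CKO zygote libraries overlap near 1.4%, while in the 17 dense tiles methylated in sperm (right, separate axis) both CKO zygote libraries lie above both WT libraries.

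Tiles just inside and just outside the limits are described without a test. Inside the sperm limit, 5 dense tiles had a higher sperm library above 10% and up to 20%, and 1 of them departed. Outside it, 4 dense tiles had a higher sperm library above 20% and up to 40%, and 2 of them met the same rule. Their means in WT zygotes were 6.96% and 15.6%, and in WT blastocysts 0.192% and 8.03%. At the limit of density, 248 tiles with 8 positions averaged 0.945% in WT zygotes with 2 departing, and 304 tiles with 7 positions averaged 1.60% with 6 departing. WT blastocysts averaged 0.821% and 0.750% over these sets. CKO zygotes and CKO blastocysts averaged 0.871% ± 0.152 and 0.919% ± 0.720 at 8 positions, without a fall, and 1.22% ± 0.327 and 0.944% ± 0.264 at 7 (SD, n = 2).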

How the data were processed

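The deposited tables give, per cytosine position, methylated and unmethylated read counts and the percent methylation that the authors computed from those counts. Percent equalled the value recomputed from the counts within 0.001 points at 100% of positions. Per the submitters' processing notes, the authors used Bismark (version 0.10.1) and Trim Galore with the build mm9, and no settings are stated there. Only the counts were analysed. Coordinates are mm9, counted from 1. No gene annotation of that build was used here, so tiles carry no gene names.

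Counts were summed over autosomal 100-bp tiles (Python 3.11.15, pandas 2.3.3). A tile's level is methylated over all counts, and group values are the mean and SD over 2 libraries. The labels call the libraries biological duplicates and do not describe how they were separated, so p-values measure the spread between these libraries. With 2 libraries against 2, no p was computed for means over tiles. Tiles were tested with edgeR 4.0.16 in R 4.3.3 (quasi-likelihood F-test, depth term per library, dispersion 0, all 8 embryo libraries in 1 fit, 5 comparisons, Benjamini-Hochberg adjustment over 7546 tiles), after the code was tested on simulated data. Alternatives were limma 3.58.1 on log-ratios with an offset of 0.5, edgeR's likelihood ratio test, a common dispersion, a replicate block, other limits on counts, positions and sperm level, pooled counts, and leaving out each library.

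Tiles named are those called, the 12 departing tiles with the highest group mean, those with the smallest p between genotypes or for the interaction, and the 4 with the most embryo counts. Others are said to be chosen after their values were seen. The members, the limits and the tests were chosen with earlier results of these data known, among them the dispersion of 0. The replicate numbers were not taken as pairs: the correlation of the deviations of same-numbered libraries was -0.00402 to 0.0157 between groups over all tiles, and -0.127 (WT and CKO zygotes) to 0.144 (WT and CKO blastocysts) over the dense tiles.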

Additional observations from a re-analysis of the deposited data

How the results depend on the processing

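Of 240 values recomputed under an alternative, 196 stayed and 44 moved. A mean or difference stayed if it lay within the spread between replicates, and a count of called tiles if within 1.5 times the main count. A share of tiles stayed if it lay within the 95% exact binomial interval of the main share, which takes tiles as independent. The low mean level and its fall from zygote to blastocyst in both genotypes were present under every alternative tried. With a count minimum of 20 the CKO minus WT difference in zygotes was 0.216 points. With 10 or more positions the means were 1.69% in WT and 1.65% in CKO zygotes and the WT stage difference was -0.999 points, and with 6 or more positions the CKO zygote mean was 1.55%. With at least 5 counts at the deepest position, an alternative chosen after seeing the data, the WT and CKO zygote means were 0.997% and 1.24%, their difference 0.244 points, and the stage differences -0.269 and -0.289 points, while the CKO minus WT difference in blastocysts was 0.225 points. At a level of 50% the departing share was 0.0850%, and at a level of 5% the share low in all 8 embryo libraries was 75.0%. Leaving out 1 library gave departing shares of 1.83% to 3.18% and WT blastocyst means of 0.680% to 0.949%, the highest without WT blastocyst replicate 2. The cause of these moves was not tested, apart from the departing share, where a group of 1 library needs only that library.

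Counts of called tiles over all 7546 differed between tests. edgeR's likelihood ratio test called 1923 tiles between zygote genotypes, 1570 between blastocyst genotypes, 2575 and 2682 between stages in WT and CKO, and 1225 for the interaction. It takes the spread between libraries as binomial. limma called 0 between WT stages, 3 between CKO stages and 0 for the interaction. A common dispersion called 0 in all 5 comparisons. A count minimum of 20 gave 1 between zygote genotypes and 31 between CKO stages. The replicate block, which the data do not support as a pairing, called 14 tiles between WT stages and 27 between CKO stages, against 32 and 55 without it, and none of the dense tiles. Without 1 library the counts ran from 0 to 1 between zygote genotypes, 1 to 32 between WT stages, 1 to 86 between CKO stages and 0 to 1 for the interaction. The lowest counts came with libraries of the compared groups left out: 3 (WT zygote replicate 1) and 1 (either WT blastocyst library) between WT stages, and 1 and 5 (CKO blastocyst replicates 1 and 2) between CKO stages. Depth limits single tiles: the deepest position of an embryo tile had a median of 8 to 13 counts.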

Other observations

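A further 1590 dense autosomal tiles were low in both sperm libraries and had fewer than 10 counts in at least 1 embryo library, so they took no part in the results above. With their counts pooled they were low as well. The pooled level was 0.227% and 0.269% in the sperm libraries, 1.31% and 1.32% in the WT zygote libraries and 1.67% and 1.33% in the CKO zygote libraries. It was 1.15% and 0.648% in the WT blastocyst libraries and 1.03% and 0.660% in the CKO blastocyst libraries. Among those of the 1590 that had at least 10 counts in a given library, 1.62% to 3.00% were at 20% or more in a zygote library and 0.564% to 1.65% in a blastocyst library.

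On the X chromosome 20 dense tiles were low in both sperm libraries, and none had 10 counts in all 8 embryo libraries. Their pooled level was 0.199% and 0.149% in sperm. In the embryo libraries it was 0% in 5 of 8, at 228 to 1156 counts, and at most 1.31% of 382 counts (95% exact Clopper-Pearson interval 0.426 to 3.03), in WT blastocyst replicate 2. No X tile with at least 10 counts in a library was at 20% or more there.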
